A study of Mus musculus with 7 samples.

Results

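The genes described here encode enzymes that write and erase histone methylation and acetylation. All genes of the deposited table whose symbol starts with Kdm, Hdac, Kat or Setd followed by a digit were taken, except Kdm5c, Kdm5d and Kdm6a, which gave 40 of 23930 genes. They comprised 15 lysine demethylases (Kdm), 10 histone deacetylases (Hdac), 7 lysine acetyltransferases (Kat) and 8 SET domain proteins (Setd). RNA was measured in GFP-positive cells sorted by FACS from hind leg muscles of Pax7-GFP inducible reporter mice, which were littermates on a C57/B6 background. These mice carried CreERT2 after the Pax7 stop codon and a reporter behind a loxP-flanked STOP cassette, so that green fluorescence marks cells that expressed Pax7, and their descendants, once tamoxifen has been given. From 12 weeks of age all mice were induced with tamoxifen and kept in room air (normocapnia, 3 libraries, NC1 to NC3) or in a chamber at 10% CO2 (hypercapnia, 4 libraries, HC1 to HC4) for 4 weeks, with collection at 16 weeks of age. The study's methods place the tamoxifen, given in chow, in the early part of these 4 weeks, so that induction overlapped the exposure. They also add a cardiotoxin injury to the leg muscles of both groups 3 days before collection. The labels mention no injury, and the title of the deposited table mentions 40 hours, a time that the sources used here do not tie to these samples. Neither the sex of the mice nor whether a library came from 1 mouse or a pool is labelled, so p-values measure the spread between these libraries. The question addressed is how 4 weeks of high CO2 alter the transcripts of muscle stem cells.

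Histone tails carry methyl and acetyl groups on lysines, and the balance of enzymes that add and remove them sets how accessible a gene is to the transcription machinery. Acetyltransferases generally open chromatin and deacetylases close it, while the effect of methylation depends on the lysine that carries it. In satellite cells, the resident stem cells of muscle, class IIa deacetylases hold Mef2 transcription factors inactive, Kat2b acetylates MyoD, and lysine demethylases are recruited as the myogenic programme is switched on.

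Levels are given in RPM, amplicon reads scaled to a common library total, from a panel with 1 amplicon per gene. A gene's RPM depends on how well its amplicon amplifies, so each test compared a gene only with itself across libraries. Libraries held between 14527445 and 23388710 reads, and 39 of the 40 genes averaged 1 RPM or more over the 7 libraries, as did 12504 genes of the table, which are called expressed genes here. Kdm4d, a germline-biased H3K9 demethylase, was the exception, with 0 to 3 reads per library. NC3 stood apart from the other libraries. Its 10 most abundant genes took 16.6% of its reads against 8.36% to 12.1% elsewhere, and 10619 genes reached 1 RPM in it against 11322 to 13932 elsewhere. Markers of muscle stem cells were present in every library at uneven levels, with Pax7 at 268, 8.25 and 4.34 RPM in NC1, NC2 and NC3 and at 21.5, 20.1, 79.5 and 59.7 RPM in HC1 to HC4. The macrophage gene Lyz2 was also abundant, between 8354 and 29108 RPM, highest in NC3 and lowest in NC1. In bulk samples such as these, fewer cells of a type and less RNA per cell cannot be told apart.

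Few of these 40 genes, as of all genes, were called between normocapnia and hypercapnia, and which ones depended on single libraries and on the method. Genes were called with limma on log2(RPM + 1) where they changed by more than 1.5-fold in either direction with a p under 0.05 before adjustment. By this rule 0 of 40 rose in hypercapnia, where 1.43% of all genes did, and 1 of 40 (2.5%), Kdm5a, fell, where 1.14% of all genes and 2.1% of expressed genes did. Without the fold criterion, 2 of 40 (5%) had a p under 0.05, Kdm5a and Kdm2a, against 4.66% of all genes. After Benjamini-Hochberg adjustment of the limma p-values over the table, 0 of 40 and 0 of 23930 genes were below 0.05. None of the 39 expressed members separated the 3 normocapnia from the 4 hypercapnia libraries without overlap, where 4.09% of expressed genes did so upwards and 3.63% downwards. The log2 fold changes of hypercapnia over normocapnia were under 0 for 22 and above 0 for 18 of the 40 genes, where they were under 0 for 36.1% and above 0 for 53.7% of all genes and exactly 0 for the rest. Their median was -0.06, against 0.02 over all genes and 0.16 over expressed genes. By family, 11 of 15 demethylases, 4 of 10 deacetylases, 4 of 7 acetyltransferases and 3 of 8 SET domain genes were under 0. With median-of-ratios scaling these counts were 12, 5, 4 and 5, where 41.1% of all genes were under 0. Under that scaling 2 of 40 genes, Hdac4 and Kdm3a, were called lower, where 1.23% of all genes were. With quantile normalization Hdac4, Kdm1a and Kdm3a were called lower (1.49% of all genes), in filtered edgeR Hdac4, Kdm3a and Kdm5a (3.82%), and in DESeq2 Hdac4, Kdm1a, Kdm3a and Kdm5a (3.28%).

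**Figure D1:**
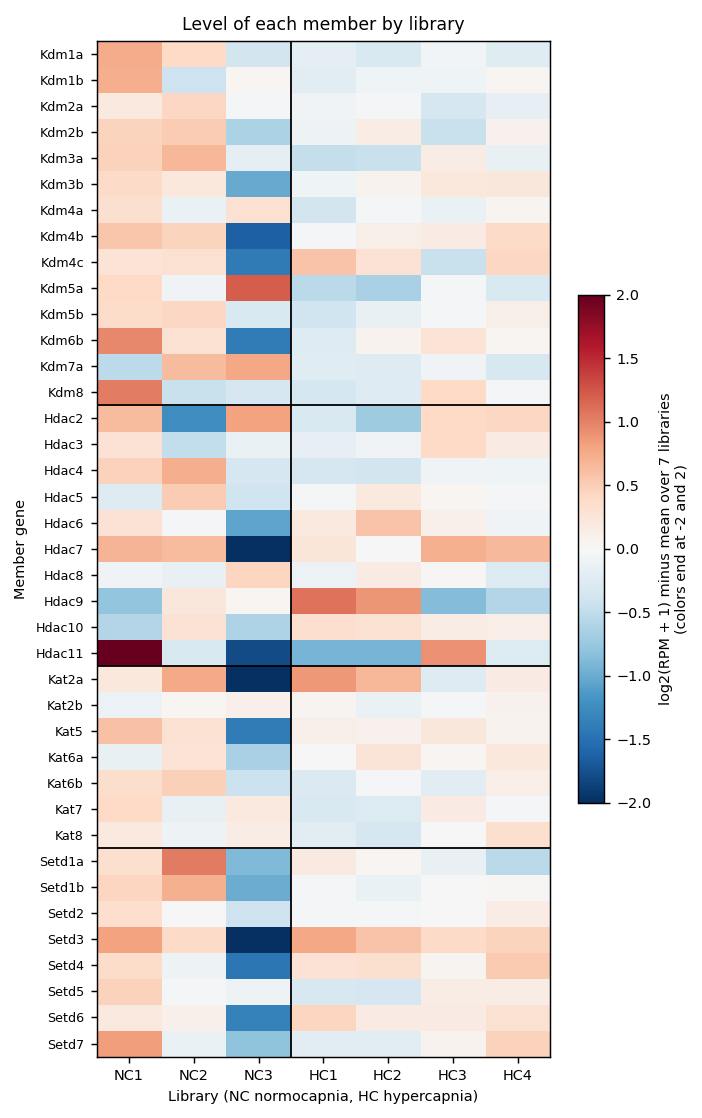
Level of 39 of the 40 genes by library, as log2(RPM + 1) minus the gene's mean over the 7 libraries (Kdm4d, below 1 RPM, is left out). Columns are the 3 normocapnia (NC) and 4 hypercapnia (HC) libraries, red is above and blue below the gene's own mean, and colors end at -2 and 2. NC3 was the lowest library for 22 of the 39 genes, while NC1 and NC2 lay above it for most of them.

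Demethylases of H3K4 include the flavin-dependent Kdm1a and Kdm1b and the oxygen- and iron-dependent Kdm5 enzymes, which remove an activating mark. Kdm5a, which also binds the retinoblastoma protein, stood at 99.1, 71.1 and 174 RPM in NC1, NC2 and NC3 and at 51.3, 47.4, 72.9 and 60.1 RPM in HC1 to HC4. Its mean was 115 ± 53.2 RPM (SD, n = 3) in normocapnia and 57.9 ± 11.3 RPM (SD, n = 4) in hypercapnia. The groups overlapped only in that NC2 lay just under HC3, and NC3 was far above every other library. The log2 fold change was -0.89 (SE 0.33, 95% interval -1.73 to -0.06), with a limma p of 0.0398 and a Benjamini-Hochberg adjusted p of 0.915. Without NC3 the log2 fold change of Kdm5a was -0.55 and it no longer passed (adjusted p = 0.822 in limma). It also missed the call without NC1, and without HC1, HC2 or HC4, where 0 of 40 genes and 0.644%, 0.669% and 0.836% of all genes were called lower. It was the single gene called lower without NC2 or HC3, where 2.23% and 1.16% of all genes were. Its log2 fold change stayed negative in all 19 alternative settings, between -1.29 and -0.55. Kdm5b stood at 32.6, 33.7 and 20.1 RPM in normocapnia and at 18.7, 22.6, 24.6 and 27.2 RPM in hypercapnia. NC1 and NC2 were above all 4 hypercapnia libraries, and NC3 was lower than 3 of them.

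Kdm1a, the demethylase of the CoREST deacetylase complex, stood at 26.6, 20.8 and 11.9 RPM in normocapnia and at 13.7, 12.5, 15.1 and 13.0 RPM in hypercapnia. NC1 and NC2 lay above every hypercapnia library and NC3 below every one. Its log2 fold change was -0.45 (SE 0.27, 95% interval -1.11 to 0.22), which did not pass. Its relative Kdm1b ranged from 25.6 to 57.8 RPM, with the hypercapnia libraries inside the range of the normocapnia ones.

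Among demethylases of H3K36 and H3K9, Kdm2a had the second p under 0.05. Kdm2a, which binds unmethylated CpG islands and acts on H3K36, stood at 25.0, 29.2 and 21.0 RPM in normocapnia and at 20.7, 21.4, 16.9 and 19.3 RPM in hypercapnia. Only NC3 and HC2 crossed, by under 1 RPM. Its log2 fold change of -0.33 (SE 0.13, 95% interval -0.66 to -0.0042, adjusted p = 0.915 in limma) was short of the fold criterion. Kdm3a, an H3K9 demethylase induced by low oxygen, stood at 54.6, 62.8 and 34.4 RPM in normocapnia and at 27.9, 28.4, 43.5 and 35.2 RPM in hypercapnia. Again NC1 and NC2 were above all 4 hypercapnia libraries while NC3 was not, and the log2 fold change of -0.55 (SE 0.26, 95% interval -1.21 to 0.11) did not pass. Its close relative Kdm3b stood at 167, 148 and 63.4 RPM in normocapnia and at 120.1, 134, 149 and 149 RPM in hypercapnia, with a log2 fold change of 0.24 (SE 0.36). Here a single library, NC3, was low, and the other 6 libraries overlapped.

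Kdm7a, which removes methyl groups from H3K9 and H3K27, had NC1, and not NC3, as its low normocapnia library. It stood at 62.3, 139.6 and 154 RPM in normocapnia and at 76.1, 75.3, 86.0 and 71.4 RPM in hypercapnia, so that NC1 was below and NC2 and NC3 were above all hypercapnia libraries. Kdm6b, an H3K27 demethylase, stood at 23.2, 14.3 and 3.72 RPM in normocapnia and at 9.42, 12.1, 13.9 and 11.8 RPM in hypercapnia. NC1 and NC2 were the 2 highest libraries and NC3 the lowest. The H3K9 and H3K36 demethylase Kdm4b had the same order, at 36.1, 33.4 and 7.16 RPM in normocapnia and 23.5 to 32.0 RPM in hypercapnia, as had Kdm2b, which links CpG islands to a Polycomb complex, at 5.93, 6.20 and 2.27 RPM against 2.75 to 4.62 RPM. The ranges of Kdm4a (93.6 to 150.1 RPM), Kdm4c (17.1 to 70.1 RPM) and Kdm8 (5.56 to 17.3 RPM) overlapped between the groups.

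**Figure D2:**
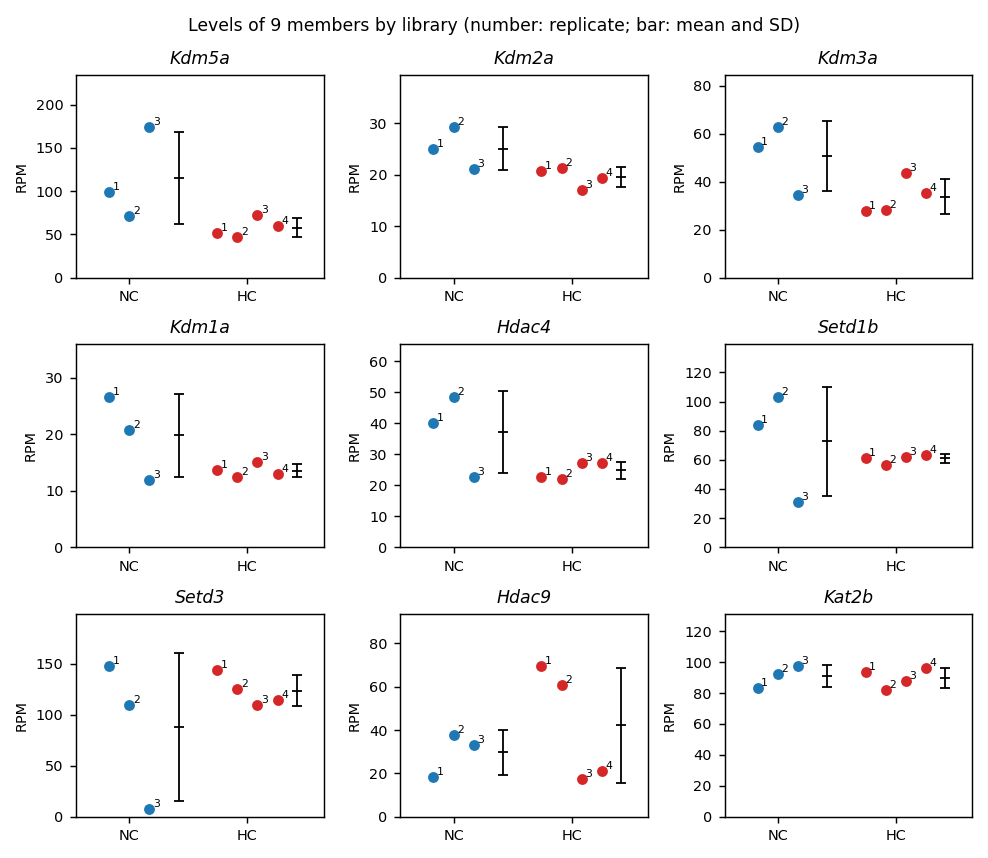
RPM of 9 of the genes in each library, on linear axes that start at 0, with normocapnia (NC) in blue, hypercapnia (HC) in red, the replicate number beside each point and the mean with its SD beside each group. Kdm5a was the gene called lower in hypercapnia. In Kdm3a, Kdm1a, Hdac4 and Setd1b the NC1 and NC2 points are above all hypercapnia points and NC3 is not, in Setd3 NC3 alone is low, and Kat2b is level across all 7 libraries.

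Deacetylases of class IIa (Hdac4, Hdac5, Hdac7 and Hdac9) bind Mef2 and shuttle between nucleus and cytoplasm. Hdac4 stood at 40.1, 48.6 and 22.6 RPM in normocapnia and at 22.7, 22.2, 27.3 and 27.2 RPM in hypercapnia. NC1 and NC2 were well above the tight hypercapnia group and NC3 fell inside it. The log2 fold change of -0.50 (SE 0.27, 95% interval -1.18 to 0.18) did not pass. Hdac5 stood at 138, 235 and 125 RPM in normocapnia and at 162, 189, 170.0 and 160.4 RPM in hypercapnia, a log2 fold change of 0.09 (SE 0.23) that turned negative in edgeR, in DESeq2 and with median-of-ratios scaling. The hypercapnia libraries lay between NC1 and NC2. Hdac7 stood at 13.5, 13.0 and 0.207 RPM in normocapnia, the last of which was 3 reads, and at 9.72, 8.09, 13.8 and 13.1 RPM in hypercapnia. Its log2 fold change was 0.93 with an SE of 0.96, and -0.25 without NC3. Hdac9 stood at 18.2, 37.9 and 33.0 RPM in normocapnia and at 69.5, 60.6, 17.2 and 21.3 RPM in hypercapnia. In this gene it was hypercapnia that divided, with HC1 and HC2 the highest libraries and HC3 the lowest.

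Class I enzymes are the catalytic subunits of the large corepressor complexes. Hdac1, also of this class, was not among the genes that the symbols matched and has no values here. Hdac2, of the Sin3, NuRD and CoREST complexes, ranged from 63.2 to 266 RPM, with NC2 lowest and NC3 highest. Hdac3, of the NCoR complex, ranged from 52.3 to 97.8 RPM and the X-linked Hdac8 from 11.4 to 19.3 RPM, with overlap in both. Of the class IIb enzymes, Hdac10, a polyamine deacetylase, stood at 10.1, 19.5 and 9.84 RPM in normocapnia and at 20.03, 19.6, 17.5 and 17.3 RPM in hypercapnia. NC1 and NC3 were low, and NC2 was level with hypercapnia. The log2 fold change was 0.54 (SE 0.25, 95% interval -0.08 to 1.15). Hdac10 did not pass, and of the 19 alternatives it was called higher in 1, without NC2, where 2.8% of all genes were. Hdac6, an X-linked cytoplasmic deacetylase of tubulin, ranged from 1.38 RPM in NC3 to 6.38 RPM in HC2, and was called higher in hypercapnia when the Xist level was a covariate, as were 3.4% of all genes. Hdac11, the single class IV enzyme, stood at 45.1, 2.78 and 0.344 RPM in normocapnia and at 1.46, 1.46, 7.81 and 2.84 RPM in hypercapnia. NC1 held far more Hdac11 than any other library, and the log2 fold change of -0.71 (SE 1.30) became 0.75 without NC1.

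None of the 7 acetyltransferases was called. Kat2b, which acetylates MyoD, stood at 83.1, 92.7 and 97.3 RPM in normocapnia and at 93.6, 82.0, 87.8 and 96.0 RPM in hypercapnia. All 7 libraries lay between 82.0 and 97.3 RPM, with a log2 fold change of -0.02 and a 95% interval from -0.21 to 0.18, within the fold criterion. Its paralog Kat2a, the alternative catalytic subunit of SAGA, stood at 6.02, 9.24 and 0.138 RPM in normocapnia, the last of which was 2 reads, and at 10.0, 8.64, 4.06 and 5.82 RPM in hypercapnia. NC3 alone was far below the rest, and the log2 fold change was 0.84 (SE 0.83), or -0.12 without NC3. Kat6a, known for its role in blood stem cells, stood at 156, 209.7 and 111 RPM in normocapnia and at 174, 207, 179 and 202 RPM in hypercapnia, a log2 fold change of 0.30 (SE 0.22). Its hypercapnia libraries lay below NC2 and above NC1 and NC3. Kat5, of the Tip60 complex, stood at 52.2, 42.9 and 12.5 RPM in normocapnia and at 36.4 to 40.5 RPM in hypercapnia, so that 2 normocapnia libraries were above and 1 was below the whole hypercapnia group. Kat6b had NC1 and NC2 at 23.6 and 25.9 RPM, NC3 at 13.2 RPM and hypercapnia at 14.8 to 20.04 RPM. The H4 acetyltransferase Kat8 (33.6 to 53.2 RPM) and Kat7 (80.9 to 134 RPM), of the Hbo1 complex, overlapped between groups.

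SET domain genes of this list act on histones and on other proteins. Setd1b, an H3K4 methyltransferase of the COMPASS complex, stood at 84.2, 103 and 31.0 RPM in normocapnia and at 61.5, 56.7, 61.9 and 63.5 RPM in hypercapnia. The hypercapnia libraries were within 7 RPM of each other, with NC1 and NC2 above them and NC3 below. Its paralog Setd1a stood at 5.44, 9.58 and 1.79 RPM in normocapnia and at 2.57 to 4.84 RPM in hypercapnia, in the same order. Setd3, which methylates a histidine of actin, stood at 147, 109.3 and 7.30 RPM in normocapnia and at 144, 125, 109.8 and 114 RPM in hypercapnia. NC3 was far below the other 6 libraries, which lay between 109.3 and 147 RPM, and the log2 fold change of 1.27 carried an SE of 1.06 and was -0.05 without NC3. Setd4 stood at 5.17, 3.42 and 0.757 RPM in normocapnia and at 4.79, 4.98, 3.94 and 5.82 RPM in hypercapnia (log2 fold change 0.69, SE 0.45), with NC3 lowest. Setd5 stood at 434, 310.2 and 294 RPM in normocapnia and at 252, 248, 349 and 350.2 RPM in hypercapnia (log2 fold change -0.20, SE 0.21), and its groups crossed. Setd2, which trimethylates H3K36, ranged from 124 to 209.9 RPM, Setd6 from 4.68 to 18.7 RPM and Setd7, an H3K4 monomethyltransferase that also acts on other proteins, from 47.7 to 152 RPM. NC3 was the lowest library for all 3 genes.

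These genes varied more among normocapnia than among hypercapnia libraries. The median SD of log2(RPM + 1) over the 39 genes was 0.642 in normocapnia and 0.193 in hypercapnia, against 0.682 and 0.291 over expressed genes. The SD was larger in normocapnia for 37 of the 39 (94.9%), as it was for 81.1% of expressed genes. NC3 was the lowest of the 7 libraries for 22 of 39 genes (56.4%, against 48.9% of expressed genes) and the highest for 5, Hdac2, Hdac8, Kat2b, Kdm5a and Kdm7a (12.8%, against 15.4%). For 11 of 39 (28.2%, against 24.5%) its level was under 50% of the next lowest library. These shares were near those of expressed genes in general. The median deviation from the gene's mean was 0.37, 0.27 and -0.41 in NC1, NC2 and NC3 over the 39 genes, and 0.24, -0.05 and -0.51 over expressed genes, so NC2 was higher for these genes than for expressed genes as a whole, a difference that was not tested.

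**Figure D3:**
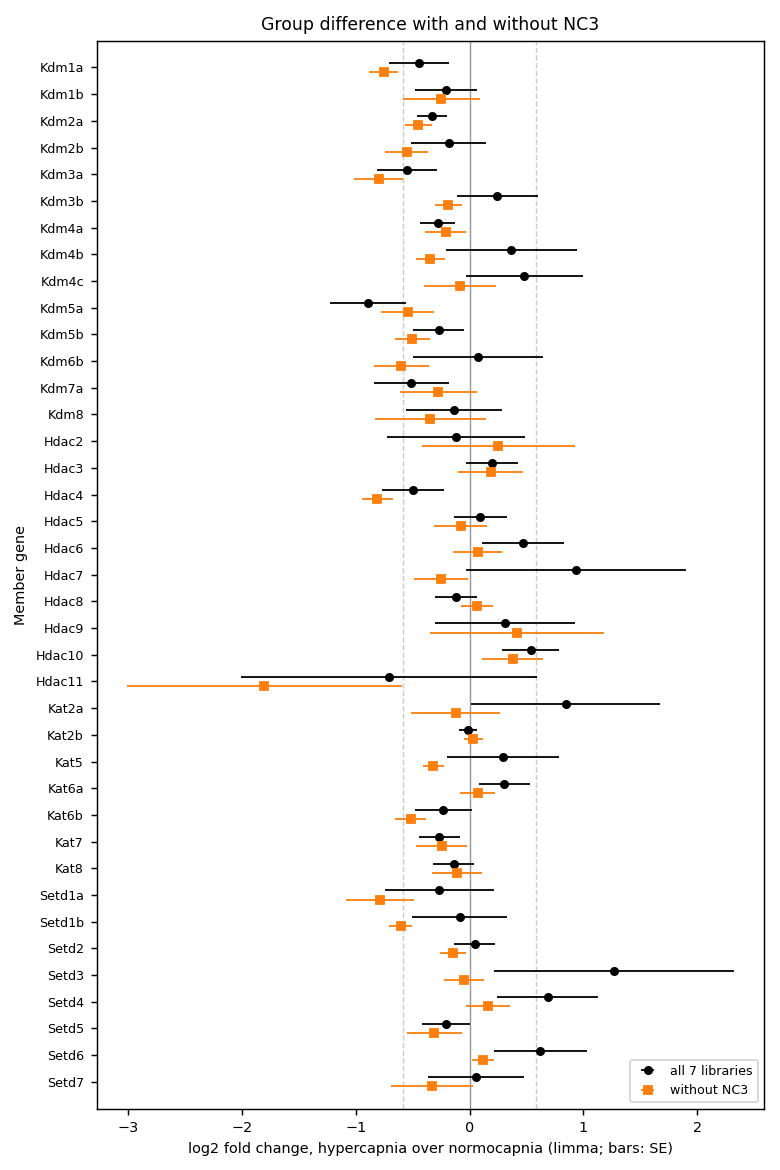
Log2 fold change of hypercapnia over normocapnia in limma with its SE, for 39 genes, with all 7 libraries (black circles) and without NC3 (orange squares). Dashed lines mark the fold criterion of 1.5 in either direction. Without NC3 all demethylases plotted are to the left of 0, and Hdac4, Kdm1a, Kdm3a and Setd1b were called lower.

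Leaving out NC3 changed which genes were called. Without it 4 of 40 genes (10%) fell in hypercapnia, where 1.59% of all genes and 2.86% of expressed genes did, and 0 of 40 rose, where 0.982% of all genes did. Those 4 were Hdac4, with a log2 fold change of -0.81 (SE 0.14), Kdm3a at -0.80 (SE 0.21), Kdm1a at -0.76 (SE 0.13) and Setd1b at -0.61 (SE 0.10). None of the 40 passed Benjamini-Hochberg adjustment in limma, the lowest adjusted p being 0.255, while 10 of 40 (25%) had an unadjusted p under 0.05 against 6.79% of all genes. The log2 fold change was then under 0 for 30 of 40 genes (75%), against 46.7% of all genes and 56.6% of expressed genes, and for 15 of 15 demethylases, Kdm4d with its 0 to 3 reads included. Without NC1 it was under 0 for 8 of 15 demethylases, against 27.5% of all genes. NC1 and NC2 were both above all 4 hypercapnia libraries for 12 of 39 genes (30.8%), where 10.1% of expressed genes were, and both below for 0 of 39, where 5.98% were. The 12 genes were Kdm1a, Kdm2a, Kdm2b, Kdm3a, Kdm4b, Kdm5b, Kdm6b, Hdac4, Kat5, Kat6b, Setd1a and Setd1b. The attention to this pair of libraries was chosen after values were seen, and leaving out NC1 in place of NC3 turned the median log2 fold change of the 40 genes from -0.06 to 0.10, and that of expressed genes from 0.16 to 0.36. Without NC1 a different gene, Kdm7a, was called lower, at a log2 fold change of -0.92, where 2.07% of all genes were, and 0 of 40 were called higher, where 6.25% of all genes were.

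Xist, which is transcribed from the inactive X chromosome of females, was high in NC1, NC2, HC1 and HC2, at 445 to 701 RPM, and near 0, at 0.125 RPM or less, in NC3, HC3 and HC4, which held the Y-linked Ddx3y at 103 to 206 RPM. The only normocapnia library with Xist near 0 was NC3, so within those 3 libraries the condition and NC3 cannot be told apart. With NC3 left out, normocapnia held only libraries high in Xist, while hypercapnia held both kinds. In that fit, and where NC1 and NC2 are compared with hypercapnia, condition and Xist level cannot be fully told apart. Within the 4 libraries high in Xist, 5 of 40 genes (12.5%) fell in hypercapnia by the limma rule, Hdac4, Kdm1a, Kdm3a, Kdm5b and Setd1b, where 2.64% of all genes did, and 0 rose, where 1.6% did. Of the 12504 expressed genes, 588 fell and 365 rose in these libraries. Only Kdm2a, Kdm5a and Kat7 were lower in hypercapnia without overlap in both sets of libraries (3 of 39, 7.69%, against 7.89% of expressed genes), and Hdac10 alone was higher in both (2.56%, against 10.1%). Kdm5a had a log2 difference of -0.76 in the libraries high in Xist and of -1.38 in the others. For 18 of 39 genes (46.2%, against 22.1%) the 2 sets differed in opposite directions.

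The enzymes work in complexes, and 151 of 163 listed partner genes without a Kdm, Hdac, Kat or Setd symbol were in the table. Of these, 2 (1.32%) rose and 8 (5.3%) fell in hypercapnia, where 1.43% and 1.14% of all genes and 2.66% and 2.1% of expressed genes did, and 0 passed adjustment. Without NC1, 10 (6.62%) rose and 18 (11.9%) fell, where 6.25% and 2.07% of all genes and 11.6% and 3.79% of expressed genes did, and without HC1, 1 (0.662%) rose and 5 (3.31%) fell, where 0.965% and 0.644% of all genes did. All 10 kept their direction in every one of the 19 alternative settings, but not all kept the call. Gps2 was called in 19 of the settings, Ncoa1, Brd3, Kmt2e and Mina in 18, Bptf in 16, Ep400 in 11, Sap30l and Phf19 in 10 and Kansl1 in 6. The log2 fold changes of the partners had a median of -0.09, with 86 of 151 under 0, where the median was 0.02 and 36.1% were under 0 over all genes and the median was 0.16 over expressed genes. Without NC1 the median of the partners was 0.08 with 66 under 0, and without NC3 it was -0.25 with 116 under 0, where the median of expressed genes was 0.36 and -0.07 and 27.5% and 46.7% of all genes were under 0.

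Among the bromodomain proteins, which bind acetylated histones, 2 of 18 fell and 0 rose. Brd3, of the BET family, stood at 88.7, 55.0 and 119 RPM in normocapnia and at 34.2, 33.1, 38.6 and 52.2 RPM in hypercapnia (log2 fold change -1.08, SE 0.30). Bptf, of the NURF remodelling complex, stood at 57.0, 86.1 and 90.4 RPM in normocapnia, with 44.5, 50.6, 51.9 and 43.3 RPM in hypercapnia (log2 fold change -0.67, SE 0.18). Neither gene overlapped between the groups.

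Of 36 corepressors and subunits of deacetylase complexes 2 fell and 0 rose. Gps2, a subunit of the NCoR complex with Hdac3, stood at 66.1, 70.7 and 89.4 RPM in normocapnia and at 41.4, 40.7, 49.3 and 40.7 RPM in hypercapnia (log2 fold change -0.79, SE 0.13), without overlap. Sap30l, of the Sin3 complex, stood at 20.3, 16.6 and 28.6 RPM in normocapnia, with 11.6, 9.85, 14.6 and 16.1 RPM in hypercapnia (log2 fold change -0.69, SE 0.24), where NC2 and HC4 came within 1 RPM of each other. Of 9 acetyltransferases under other symbols 1 fell. This was Ncoa1, a coactivator of steroid hormone receptors, at 78.9, 45.5 and 76.5 RPM in normocapnia and at 26.9, 28.0, 37.2 and 28.2 RPM in hypercapnia (log2 fold change -1.10, SE 0.23), and every normocapnia library was above every hypercapnia library. Of 35 subunits of acetyltransferase complexes 2 fell. Ep400, of the Tip60 complex, stood at 38.6, 42.7 and 77.0 RPM in normocapnia, with 27.8, 30.9, 34.0 and 24.0 RPM in hypercapnia (log2 fold change -0.78, SE 0.27), without overlap. Kansl1, of the NSL complex with Kat8, stood at 66.0, 95.1 and 129 RPM in normocapnia, with 58.1, 60.7, 66.1 and 60.5 RPM in hypercapnia (log2 fold change -0.60, SE 0.23), with NC1 level with HC3.

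Of 25 methyltransferases under other symbols 1 fell, Kmt2e, a SET domain protein that reads H3K4 methylation. It stood at 141, 216 and 192 RPM in normocapnia and at 93.2, 91.0, 118 and 107 RPM in hypercapnia (log2 fold change -0.82, SE 0.18), and the groups did not overlap. The 2 partner genes that rose were Mina, 1 of 6 demethylases under other symbols and a member of the ribosomal oxygenase family, and Phf19, 1 of 16 subunits of methyltransferase complexes and an accessory subunit of Polycomb complex PRC2. Mina stood at 21.7, 19.5 and 12.0 RPM in normocapnia and at 34.2, 30.7, 29.2 and 31.1 RPM in hypercapnia (log2 fold change 0.82, SE 0.20), without overlap. Phf19 stood at 11.2, 2.22 and 3.51 RPM in normocapnia, with 9.55, 12.2, 15.6 and 12.9 RPM in hypercapnia (log2 fold change 1.25, SE 0.48), where NC1 lay inside the hypercapnia range. Among 6 Mef2-related partners of class IIa deacetylases 0 were called. Without NC3, 8 partners (5.3%) fell and 0 rose, where 1.59% and 0.982% of all genes did, and Ncoa1, Gps2, Kmt2e and Brd3 were in both sets of calls.

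**Figure D4:**
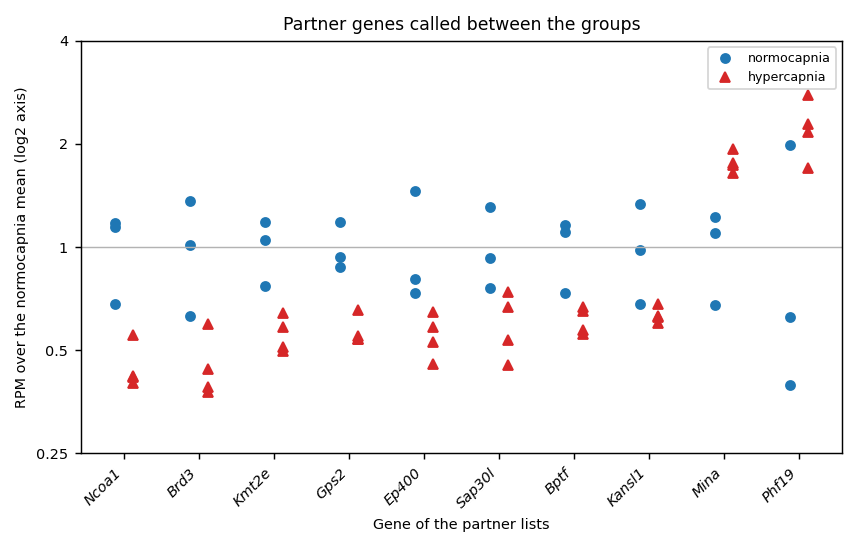
RPM of the 10 partner genes called between the groups, divided by each gene's normocapnia mean, on a log2 axis, with normocapnia libraries as blue circles and hypercapnia libraries as red triangles. For 8 genes hypercapnia is lower and for Mina and Phf19 it is higher, and the groups overlap in Kansl1 and Phf19 only.

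Markers of the cell types that the sort could hold did not separate the groups by summed level. The 13 satellite cell markers summed to 612 to 4026 RPM in normocapnia and 805 to 1692 RPM in hypercapnia, and 0 of 13 were called. The 15 macrophage markers summed to 13980 to 36810 RPM and 22090 to 27330 RPM, and 1 of 15, Adgre1, was called higher in hypercapnia. The sums were 65.1 to 218 and 78.2 to 289.9 RPM for 10 neutrophil markers, of which Mpo was at 0 in all libraries, 12.4 to 26.1 and 20.8 to 22.4 RPM for 10 lymphocyte markers, 92.2 to 267 and 66.4 to 633 RPM for 10 endothelial markers, 1068 to 1907 and 980 to 2391 RPM for 9 fibro-adipogenic markers and 344 to 6025 and 470 to 3055 RPM for 10 myofiber markers, with 0 called in each. All 10 cell cycle genes had a log2 fold change above 0, with sums of 123 to 1016 RPM in normocapnia and 489 to 943 RPM in hypercapnia, and 0 were called. NC3 had the lowest sum of satellite cell and myofiber markers and the highest of macrophage markers, and NC1 the reverse. The part of cell composition in the levels of the 40 genes was not tested beyond the fit with the satellite cell markers as a covariate, in which Kdm5a kept its log2 fold change of -0.89 but was not called and Hdac11 was called lower, as were 1.76% of all genes.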

How the data were processed

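RNA of 7 libraries (3 normocapnia, 4 hypercapnia) was measured with the Ion AmpliSeq Transcriptome Mouse panel. The authors deposited RPM per gene, that is, amplicon reads scaled to a common library total. The labels name the Transcriptome Analysis Console, and the sources used here give no aligner or build. Columns were matched to libraries by barcode. Because 1 read was worth 0.0428 to 0.0688 RPM, whole reads were recovered for 100% of values within 0.05 reads and used in edgeR 4.0.16 and DESeq2 1.42.0 as alternatives. A count of 3 reads, the floor, was 0.128 to 0.207 RPM. No 2 libraries agreed within counting noise.

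All 23930 genes, unfiltered, entered a two-sided limma fit (version 3.58.1, R 4.3.3) of hypercapnia against normocapnia on log2(RPM + 1), with Benjamini-Hochberg adjustment. The pseudocount of 1 RPM understates changes of low genes. Scripts were tested on simulated data. There limma called 100% of 4-fold changes before adjustment at a dispersion of 0.05 and 71% at 0.3. After adjustment it called 51.5% and 0% of them, so true changes can go without an adjusted call. The genes and lists were chosen with earlier results of these data known, and partner and marker lists come from general knowledge. Of the partner genes, 1 is not reported here and is left out of the counts.

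Named genes were members with a p under 0.05, in each family the gene with the highest mean RPM over the 7 libraries and the 2 with the largest absolute fold change, and called partners, 12 members in all. A further 17 members were followed through the alternatives after their values were seen, because an alternative called them, NC1 and NC2 stood apart from hypercapnia, they differed in direction between libraries with Xist high and near 0, or, for Kat2b, as a level gene, and the remaining 11 are given by range. In all, 19 alternatives were run, 1 of them, within the libraries high in Xist, added after the data were seen, as were all alternatives for the partner lists. The genotype labels of the 7 libraries differ only in the number that ends the strain name, and the strain is given here as in the growth protocol.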

Additional observations from a re-analysis of the deposited data

Results flagged for a closer look

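The hypercapnia difference ran in opposite directions, without overlap, in the 4 libraries high in Xist and the 3 with Xist near 0 for 18 of 39 genes (46.2%, against 22.1% of expressed genes). The difference between the sets was not tested, since sex is not labelled and NC3 is the only normocapnia library with Xist near 0. The split by Xist, and the decision to list these genes, were made after the values were seen. On the log2 scale, the difference in the libraries high in Xist minus that in the others was 2.02 for Hdac9, the only 1 of the 18 that was higher where Xist was high. Among demethylases it was -1.02 for Kdm1a, -0.91 for Kdm2b, -1.21 for Kdm3a, -1.53 for Kdm3b, -2.37 for Kdm4b, -1.01 for Kdm5b and -2.27 for Kdm6b. It was -1.20 for Hdac4, -4.11 for Hdac7 and -4.54 for Hdac11 among deacetylases, -1.88 for Kat5 and -0.98 for Kat6b among acetyltransferases, and -1.12 for Setd1a, -1.64 for Setd1b, -0.69 for Setd2, -0.80 for Setd5 and -1.64 for Setd7 among SET domain genes. Within the 4 hypercapnia libraries Dixon's test for a single outlier marked 0 of 39 genes, where chance marks about 1 in 20. It cannot mark a gene whose libraries divide into pairs, as in Hdac9, and the normocapnia libraries were not examined.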

How the results depend on the processing

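The 40 genes were recomputed under 19 alternatives, and 0 of 40 passed adjustment in any of them, where 29 genes of the table did in DESeq2 (0.121%), 8 without NC1 and 1 without NC3. Genes called lower numbered 1 as reported, 2 with median-of-ratios scaling, 3 with quantile normalization, 3 in filtered edgeR, 4 in DESeq2 and 5 within the libraries high in Xist, and 0 to 4 when 1 library was left out (0 without HC1, HC2 or HC4). Genes called higher numbered 0, but 1 (Hdac6) with Xist as a covariate, and 0 to 1 when 1 library was left out. The median log2 fold change of -0.06 became -0.19 with median-of-ratios scaling, -0.28 in edgeR with and without a filter, -0.32 in DESeq2 and -0.32 within the libraries high in Xist, and -0.25 to 0.10 when 1 library was left out. These scalings and count models, and quantile normalization, lowered the median of expressed genes by 0.12 to 0.20. That median was 0.16 as reported, -0.17 within the libraries high in Xist, and -0.07 to 0.36 when 1 library was left out. Over all genes limma called 343 higher and 272 lower, and unfiltered edgeR 407 and 642. Partner genes called numbered 10, but 17 in unfiltered edgeR, 24 in DESeq2, 18 with Xist as a covariate and 6 (without HC1) to 28 (without NC1) when 1 library was left out. Over all genes, 2.57% were called as reported, and 4.88%, 5.45%, 5.5%, 1.61% and 8.32% in these settings.

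Directions turned for 16 of the 29 members examined when 1 library was left out, the log2 fold change running from -1.80 to 0.75 for Hdac11, -0.081 to 0.37 for Hdac5, -0.25 to 1.54 for Hdac7, -0.0086 to 0.64 for Hdac9, -0.12 to 1.46 for Kat2a, -0.082 to 0.031 for Kat2b, -0.32 to 0.67 for Kat5, -0.55 to 0.016 for Kdm2b, -0.19 to 0.50 for Kdm3b, -0.34 to 0.75 for Kdm4b, -0.60 to 0.58 for Kdm6b, -0.79 to 0.17 for Setd1a, -0.61 to 0.24 for Setd1b, -0.15 to 0.23 for Setd2, -0.048 to 2.03 for Setd3 and -0.33 to 0.49 for Setd7. Hdac5, Kdm6b, Setd2 and Setd7 also turned negative by method, to -0.049, -0.036, -0.099 and -0.085 with median-of-ratios scaling, -0.072, -0.16, -0.056 and -0.075 in filtered edgeR, -0.063, -0.18, -0.050 and -0.084 in unfiltered edgeR, and -0.11, -0.20, -0.098 and -0.12 in DESeq2. Kdm6b and Setd7 reached -0.22 and -0.023 with quantile normalization and -0.048 and -0.054 with the satellite marker covariate, Kdm6b -0.0077 with a pseudocount of 5 RPM, and Setd1b 0.031 with the Xist covariate. Within the libraries high in Xist values turned to -0.038 for Hdac5, -0.53 for Hdac7, -0.34 for Kat5, -0.30 for Kdm3b, -0.46 for Kdm4b, -0.72 for Kdm6b, -0.20 for Setd2 and -0.57 for Setd7. The causes were not tested.

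Replicate numbers did not pair the libraries, since the correlation of deviations between libraries of the same number was -0.349, 0.503 and -0.0443. With the replicate block, in which HC4 has no partner and adds nothing, 1 member (Kdm5a) was called lower and 0 higher, where 1.03% and 1.47% of all genes were, and Setd7 was at -0.089. Kdm4d, Hdac7 and Kat2a rest on 3 reads or fewer in at least 1 library.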
